A study of Mus musculus with 4 samples.

Results

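The mitochondrial respiratory chain was followed through 55 nuclear genes for subunits of complexes I to V and for cytochrome c, listed by gene name. Of these, 54 had a probe set annotated with that gene alone and all 54 passed the intensity filter, among 18193 genes on the array and 10916 genes tested. Cox7b, a subunit gene of complex IV, had no such probe set and was not analysed here. Each of 4 arrays held RNA of the whole back skin of male C57B6 mice. Late adult telogen was sampled at postnatal day 59 (P59, 2 arrays) and middle telogen at postnatal day 54 (P54, 2 arrays). Telogen is the resting phase of the hair cycle. The labels name no genotype, transgene or treatment, and do not give the number of animals in a sample, so the p-values speak only of the spread between samples.

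The respiratory chain is a set of protein complexes in the inner mitochondrial membrane that passes electrons from NADH and succinate to oxygen and pumps protons as it does so. Complex I accepts electrons from NADH, complex II from succinate, complex III hands them to cytochrome c, complex IV passes them to oxygen, and complex V, the ATP synthase, uses the proton gradient to make ATP. In skin the chain is most abundant in cell types rich in mitochondria, such as the panniculus carnosus muscle under the dermis, while mitochondria of the epidermis are known for a role in keratinocyte differentiation.

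None of the 54 genes passed a threshold between P59 and P54 in a fit that shares its estimate of the spread over all genes tested. In limma's fit 0 of 54 passed the adjusted threshold of 0.05 (0.0183% of all genes tested passed it), and 0 of 54 had an unadjusted p under 0.05 (6.49% of all genes, 3.47% of them higher and 3.01% lower at P59). With a 1.5-fold limit added the count was 0 in either direction, where 3.03% of all genes were higher and 2.53% lower. The smallest unadjusted p was 0.121 and the smallest adjusted p 0.875, both for Atp5l. The median log2 difference was 0.13 over the 54 genes and 0.05 over all genes tested. It was higher at P59 for 43 genes and lower for 11, where 58.4% of all genes were higher. The differences ran from -0.56 for Sdhc to 0.56 for Cox7a1, and 49 of 54 lay within 0.3 of zero. A p that misses the threshold does not show equal levels: the 95% intervals reached 0.50 to 0.89 to either side of the estimate, and only 7 of 54 lay wholly within a 1.5-fold difference, against 16.7% of all genes tested.

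**Figure D1:**
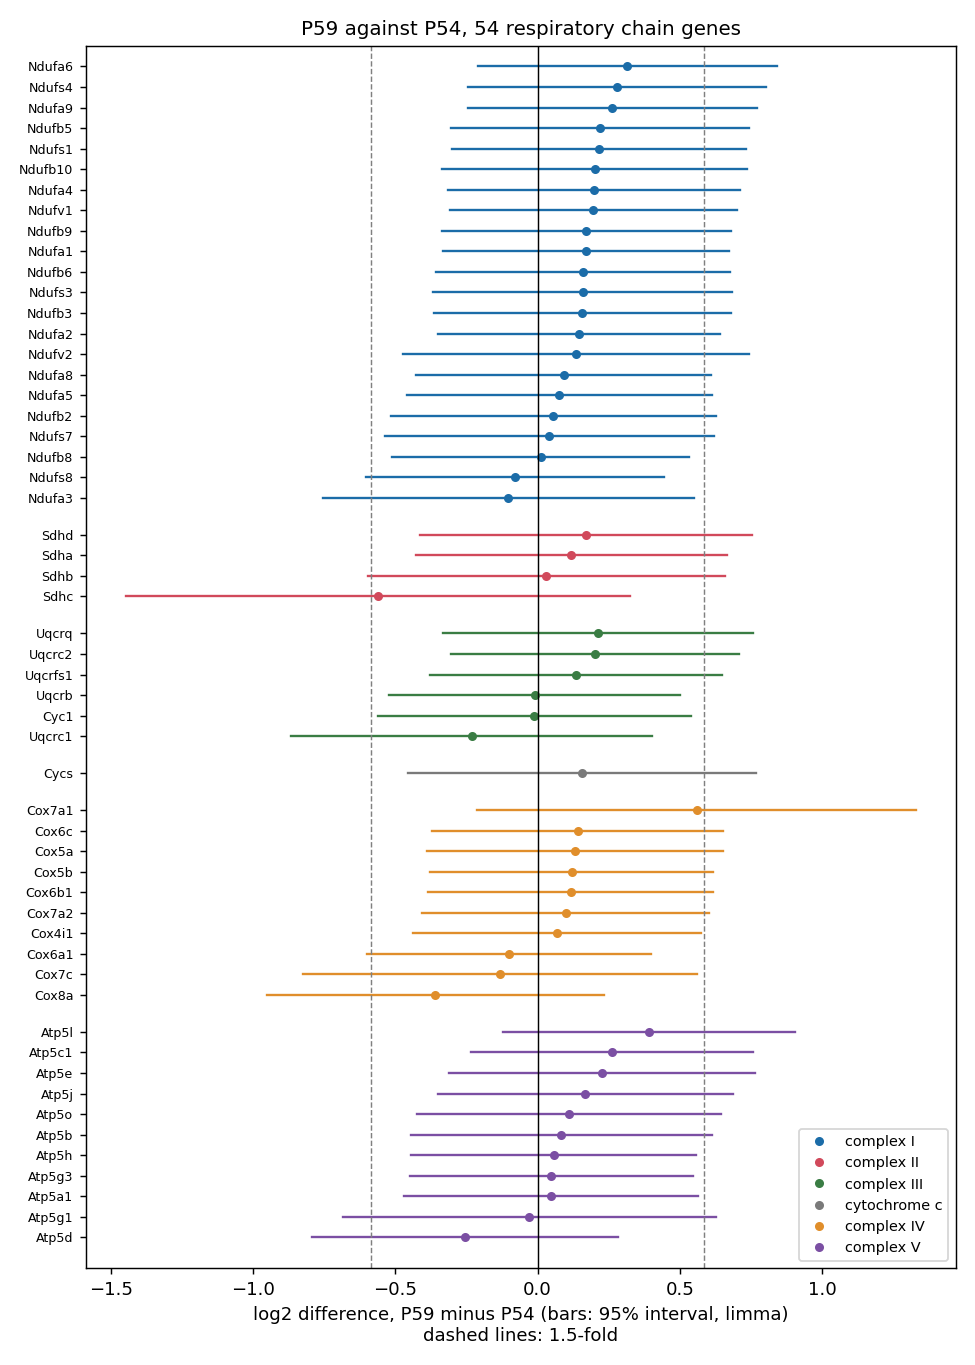
The log2 difference of each of the 54 genes (P59 minus P54, horizontal axis) is plotted with its 95% interval from limma, in rows grouped by complex, with dashed lines at 1.5-fold. Every interval crosses zero, and the points farthest out are Cox7a1 at 0.56 and Sdhc at -0.56.

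The higher median at P59 was not kept when P54 replicate 2 was left out. Relative to each gene's mean over the 4 arrays, the median deviation of the 54 genes was 0.14 and 0.01 in P59 replicates 1 and 2, against 0.08 and -0.21 in P54 replicates 1 and 2. Over all genes tested it was -0.02 and 0.10 at P59, against 0.06 and -0.10 at P54. P54 replicate 2 was the lowest of the 4 arrays for 43 of 54 genes, where it was lowest for 42% of all genes tested. Within P59, replicate 2 lay below replicate 1 for 38 of the 54 (70.4%), against 37.9% of all genes. Within P54, replicate 2 lay below replicate 1 for 52 of the 54 (96.3%), against 72.8% of all genes. Replicate 2 was thus the lower array for most of these genes at both times. Without P54 replicate 2 the median difference of the 54 genes was -0.02, and 22 of them were higher at P59. Between the arrays numbered 1 alone, the median P59 minus P54 difference was 0.05 over the 54 genes and -0.07 over all genes tested. Between the arrays numbered 2 it was 0.20 and 0.19. Genes of cytosolic ribosomal proteins, the machinery that makes most of the proteins of a cell, lay close to their means on every array: their median deviations were -0.01 and 0.07 at P59, against -0.02 and -0.01 at P54.

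**Figure D2:**
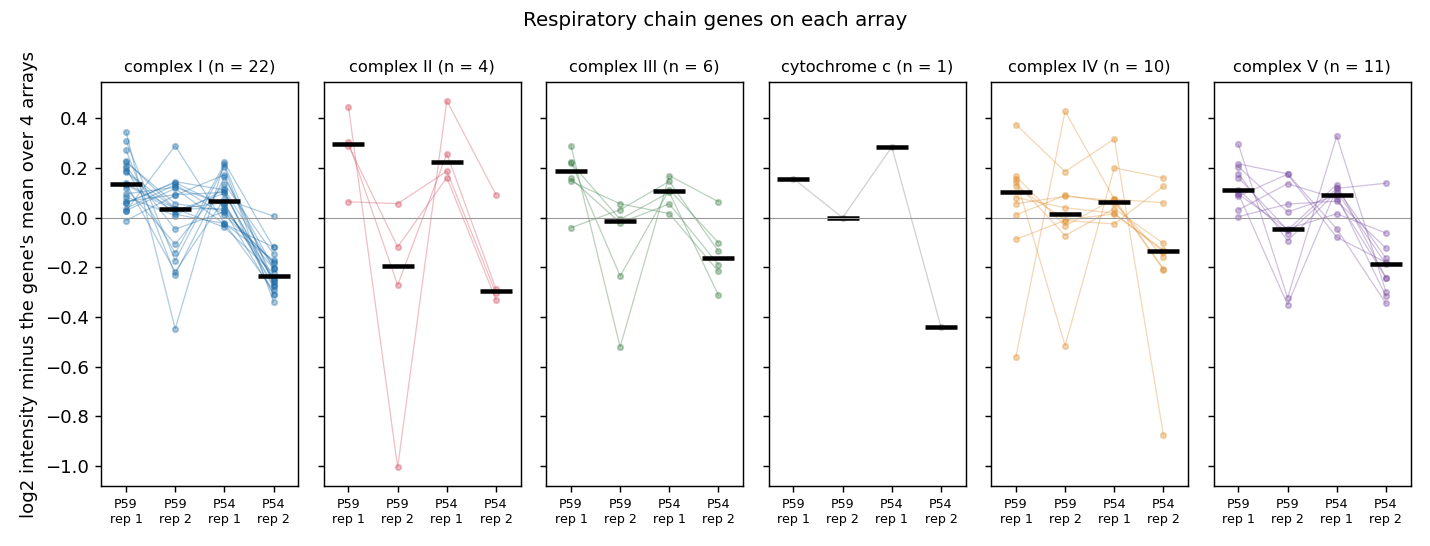
Each thin line is a gene and gives its log2 intensity minus its own mean over the 4 arrays (vertical axis), by complex, and the black bars are medians. The median is lowest in P54 replicate 2 in each of the 6 panels, and single genes of complexes I to V fall away in P59 replicate 2.

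The arrays were not of like quality, and growing follicle markers differed between them. The log2 ratio of 3′ to 5′ control probe sets, which rises when RNA is broken or copied incompletely, was 0.23 and 4.57 for Gapdh in P59 replicates 1 and 2, against 0.34 and 0.20 at P54. For Actb it was 0.18 and 1.64 at P59, against 0.45 and 0.52 at P54. P59 replicate 2 also had the lowest Spearman correlations with the other arrays (0.915 to 0.938 across genes tested), while the P54 arrays reached 0.976 with each other. Over all 15 of 16 growing hair follicle markers with a probe set, with no filter, the summed intensity was 13500 and 2900 at P59, against 1430 and 878 at P54. Of the 11 that passed the filter, 8 had a P54 mean under it and passed through the P59 arrays. Krt25, a keratin of the inner root sheath, was at 11.64 and 9.09 at P59, against 7.21 and 4.49 at P54. P59 replicate 1 was the highest array for 15 of the 15 markers, and also for 28 of the 54 respiratory chain genes (17.5% of all genes). That array was highest for 19 of 24 skeletal muscle markers too. The part of follicle growth in the respiratory chain values was not tested. Of the markers of the labelled tissue, 9 of 9 for basal keratinocytes and 9 of 9 for fibroblasts passed the filter. That filter is set on the mean over the 4 arrays, and 10916 of 18193 genes passed it. In these 2 lists 0 markers had a P54 mean under it.

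Several promoters of these genes carry letters that match the binding motifs of NRF1, YY1 and the oestrogen-related receptors, transcription factors known to act on genes of mitochondrial proteins. The windows shown run from 250 bases before to 50 bases after a gene's start, in the direction of the gene, from RefSeq on GRCm38.p6. They were chosen to show each motif in genes described here, together with the muscle-type gene Cox7a1, whose window holds none. The capitals mark matches on either strand to GCGCA, any base and GCGC (NRF1), ATGGCGG (YY1) or TCAAGGTCA (oestrogen-related receptors), and no matches of different motifs overlap in these windows. Sdha lies at chr13:74350191-74350490 (minus strand) and holds 3 NRF1 matches. Uqcrc1 lies at chr9:108936398-108936697 (plus strand) with 2 NRF1 matches, and Cox6a1 at chr5:115348909-115349208 (minus strand) also with 2. Sdhd lies at chr9:50603800-50604099 (minus strand) with 1 NRF1 match and 1 match for the oestrogen-related receptors. Ndufs4 lies at chr13:114388045-114388344 (minus strand) with 1 YY1 match, and Cox7a1 at chr7:30183921-30184220 (plus strand).
Sdha: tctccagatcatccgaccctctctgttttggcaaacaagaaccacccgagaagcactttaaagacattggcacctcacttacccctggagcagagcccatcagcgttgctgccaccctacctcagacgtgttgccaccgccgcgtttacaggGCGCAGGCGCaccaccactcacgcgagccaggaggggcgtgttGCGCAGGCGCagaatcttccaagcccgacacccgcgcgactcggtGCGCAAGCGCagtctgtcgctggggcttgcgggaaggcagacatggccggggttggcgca
Uqcrc1: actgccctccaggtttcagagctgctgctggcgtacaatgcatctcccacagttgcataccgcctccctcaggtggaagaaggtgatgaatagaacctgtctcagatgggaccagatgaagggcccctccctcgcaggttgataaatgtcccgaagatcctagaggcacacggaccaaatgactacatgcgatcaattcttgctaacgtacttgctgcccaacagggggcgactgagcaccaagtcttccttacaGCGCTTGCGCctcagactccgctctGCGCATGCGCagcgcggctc
Cox6a1: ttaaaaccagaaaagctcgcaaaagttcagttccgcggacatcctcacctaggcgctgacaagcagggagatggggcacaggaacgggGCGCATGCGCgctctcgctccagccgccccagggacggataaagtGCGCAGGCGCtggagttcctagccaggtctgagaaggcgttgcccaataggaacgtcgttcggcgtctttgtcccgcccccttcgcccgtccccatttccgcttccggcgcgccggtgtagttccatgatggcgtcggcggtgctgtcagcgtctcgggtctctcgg
Sdhd: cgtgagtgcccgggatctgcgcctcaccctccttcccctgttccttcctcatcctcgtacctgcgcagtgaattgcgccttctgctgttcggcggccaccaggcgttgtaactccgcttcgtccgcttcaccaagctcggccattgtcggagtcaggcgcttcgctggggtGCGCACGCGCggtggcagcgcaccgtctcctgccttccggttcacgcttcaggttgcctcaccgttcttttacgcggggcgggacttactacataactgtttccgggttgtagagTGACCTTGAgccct
Ndufs4: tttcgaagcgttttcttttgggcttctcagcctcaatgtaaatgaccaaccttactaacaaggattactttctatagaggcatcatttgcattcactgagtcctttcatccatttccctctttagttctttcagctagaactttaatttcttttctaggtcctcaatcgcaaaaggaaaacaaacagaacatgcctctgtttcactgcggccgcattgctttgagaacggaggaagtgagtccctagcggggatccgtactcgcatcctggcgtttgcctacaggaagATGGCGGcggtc
Cox7a1: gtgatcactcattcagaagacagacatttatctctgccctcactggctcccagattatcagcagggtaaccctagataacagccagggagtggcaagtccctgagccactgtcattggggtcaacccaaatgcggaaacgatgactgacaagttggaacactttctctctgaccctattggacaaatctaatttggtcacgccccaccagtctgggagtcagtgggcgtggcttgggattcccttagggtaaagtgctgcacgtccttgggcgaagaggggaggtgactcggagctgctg

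The promoter table held windows for 44 of the 55 genes, 48 windows in all. The NRF1 letters stood in 12 of the 48 windows (25%), against 9.78% of the windows of all genes tested and 4.6% of all windows in the table. The YY1 letters stood in 8 windows (16.7%), against 7.68% and 4.05%. The letters of the oestrogen-related receptors stood in 2 windows (4.17%), those of Sdhd and Atp5g3, against 0.274% and 0.423%. In all, 18 of the 44 genes held at least 1 of the 3 motifs. A match is a description of these letters and says nothing of whether the factor binds in skin.

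Complex I, the entry point for electrons from NADH, was described by 22 genes, counting Ndufa4, which was later assigned to complex IV. Their median log2 difference was 0.16, with 20 higher and 2 lower at P59, and the median was 0.02 without P54 replicate 2. The P59 arrays both lay above both P54 arrays for 9 of the 22 genes and below them for 0 (18.9% and 14.8% of all genes tested). Ndufa4 was among these 9. Over all 54 genes the counts were 13 above and 2 below. Above were 0 of 4 genes in complex II and 1 of 6 in complex III. In complex IV it was 1 of 10, and in complex V 2 of 11. Ndufa6, an accessory subunit, had log2 intensities of 11.16 and 11.42 at P59, against 11.11 and 10.84 at P54. The upper P54 array and the lower P59 array were thus close together, and the difference was 0.31 (SE 0.24, 95% interval -0.21 to 0.84, limma adjusted p = 0.917). Ndufs4, an accessory subunit whose loss in mice is used as a model of Leigh syndrome, had 10.42 and 10.25 at P59, against 10.22 and 9.89 at P54. Its groups were separated by less than the gap within either time, with a difference of 0.28 (SE 0.24, -0.25 to 0.80, limma adjusted p = 0.935).

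The core subunits given here differed by -0.08 to 0.22. Ndufv1, which carries the NADH binding site, was at 11.03 and 10.87 at P59, against 10.83 and 10.68 at P54, without overlap (difference 0.20). Ndufs1, an iron-sulfur subunit, was at 10.81 and 10.84 at P59, against 10.77 and 10.45 at P54, so that P54 replicate 2 alone was low. Ndufs7 and Ndufs8, iron-sulfur subunits near the quinone site, differed by 0.04 and -0.08. Ndufa4, named for complex I and later assigned to complex IV, differed by 0.20. These 5 genes were chosen for their roles after their values were seen. Ndufa3, an accessory subunit, had the widest gap between the P59 arrays of this complex: it was at 12.31 and 11.51 at P59, against 12.18 and 11.84 at P54. Its difference of -0.10 was 0.30 without P59 replicate 2. Another probe set of Ndufa3 above the filter was also low in P59 replicate 2, with replicate 2 minus replicate 1 at -0.63.

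Complex II, succinate dehydrogenase, belongs to both the respiratory chain and the tricarboxylic acid cycle, and all of its 4 subunits are encoded in the nucleus. The median deviation of its 4 genes was low in both arrays numbered 2, though Sdha was not low in P59 replicate 2. It was 0.30 and -0.20 in P59 replicates 1 and 2, against 0.22 and -0.30 in P54 replicates 1 and 2. Sdha, the flavoprotein that oxidises succinate, was at 11.43 and 11.42 at P59, against 11.55 and 11.06 at P54. The P59 arrays were nearly equal and fell between the P54 arrays (difference 0.12, limma adjusted p = 0.973). Another probe set of Sdha above the filter was at 11.38 and 11.48 at P59, against 11.29 and 10.99 at P54, without overlap (difference 0.29). Sdhb, the iron-sulfur subunit, was at 11.48 and 10.91 at P59, against 11.44 and 10.89 at P54. The arrays numbered 1 were alike and so were those numbered 2, with a difference of 0.03. Sdhd, a membrane anchor, was at 10.53 and 10.12 at P59, against 10.40 and 9.91 at P54, with groups that overlapped (difference 0.17). Its other, dimmer probe set was at 7.39 and 7.51 at P59, against 7.20 and 6.52 at P54, without overlap (difference 0.58). Without P54 replicate 2 the differences of Sdha, Sdhb and Sdhd, in the sets with the highest mean, turned to -0.13, -0.24 and -0.08.

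Sdhc, the other membrane anchor, had the lowest difference of all 54 genes. It was at 10.83 and 9.38 at P59, against 10.86 and 10.48 at P54. P59 replicate 1 matched P54 replicate 1, and P59 replicate 2 stood alone below the other arrays. The difference was -0.56 (SE 0.40, 95% interval -1.45 to 0.33, limma adjusted p = 0.917), and 0.16 without P59 replicate 2. With P59 replicate 2 as the lone P59 array, assumed to vary as the P54 arrays do, Sdhc was at -1.29 (limma adjusted p = 0.0333) and was the 1 gene of 54 past the adjusted threshold, which 402 of 10916 genes passed in the same fit. The other probe set of Sdhc above the filter gave the same picture, at 9.89 and 8.41 at P59, against 9.67 and 9.47 at P54.

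Complex III passes electrons from ubiquinol to cytochrome c. Of its 6 genes 3 were higher and 3 lower at P59, with a median of 0.06, which was -0.06 without P54 replicate 2. Uqcrc2, a core subunit, was at 11.63 and 11.54 at P59, against 11.50 and 11.27 at P54. It was the gene of this complex whose groups did not overlap, with a difference of 0.20 (SE 0.23, limma adjusted p = 0.952). Uqcrc1, the other core subunit, was at 11.82 and 11.01 at P59, against 11.70 and 11.60 at P54. P59 replicate 2 was again the low array: the difference of -0.23 was 0.17 without it, and -0.64 (limma adjusted p = 0.173) without P59 replicate 1. The Rieske iron-sulfur protein gene Uqcrfs1 differed by 0.14, the cytochrome c1 gene Cyc1 by -0.01, and the small subunit genes Uqcrb and Uqcrq by -0.01 and 0.21, all with overlapping groups. The other, dimmer probe set of Uqcrb was at 11.22 and 11.31 at P59, against 11.30 and 10.65 at P54 (difference 0.29). Cycs, which encodes the mobile electron carrier cytochrome c, was at 12.03 and 11.87 at P59, against 12.16 and 11.43 at P54. Its difference of 0.16 (SE 0.28, limma adjusted p = 0.971) was -0.21 without P54 replicate 2, the array in which all 3 of its probe sets above the filter were lowest.

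Complex IV, cytochrome c oxidase, reduces oxygen, and several of its nuclear subunits exist as broadly expressed and as muscle-type forms. The median of its 10 genes was 0.11, with 7 higher and 3 lower at P59, and -0.01 without P54 replicate 2. Cox5b, a zinc-binding subunit, was at 12.94 and 12.90 at P59, against 12.88 and 12.72 at P54, groups that did not overlap but lay only 0.12 apart (limma adjusted p = 0.971). Cox4i1, the regulatory subunit of most tissues, was at 12.86 and 12.64 at P59, against 12.75 and 12.61 at P54, a difference of 0.07. Cox7a2 was at 12.63 and 12.71 at P59, against 12.68 and 12.46 at P54. Its groups overlapped, as did those of Cox6a1, which was at 12.99 and 13.07 at P59, against 13.05 and 13.20 at P54. Cox6a1 was 1 of 2 genes among the 54 with their highest value in P54 replicate 2.

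Cox8a and Cox7c departed from the others. Cox8a, the broad form of a small membrane subunit, was at 10.74 and 10.07 at P59, against 10.79 and 10.74 at P54. P59 replicate 2 alone was low, as it was in another probe set of the gene (10.71 and 9.96 at P59, against 10.62 and 10.67 at P54). The difference was -0.36 (SE 0.27, 95% interval -0.95 to 0.23, limma adjusted p = 0.917), and -0.02 without that array. Cox7c was at 6.18 and 7.17 at P59, against 6.82 and 6.80 at P54. The P59 arrays lay on both sides of the P54 arrays, and the probe set was the dimmest of the 54 (mean 6.74, filter 6.58), so this value is rough.

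The muscle-type forms shared the low value in P54 replicate 2. Cox7a1, the form of heart and skeletal muscle, was at 10.64 and 10.45 at P59, against 10.58 and 9.39 at P54. A single P54 array set it apart: the difference of 0.56 (SE 0.35, 95% interval -0.21 to 1.33, limma adjusted p = 0.891) came to -0.04 when P54 replicate 2 was left out. Leaving out P54 replicate 1 gave 1.16 (limma adjusted p = 0.363). Cox6a2 and Cox8b, muscle-type forms outside the 55 genes, were lowest in the same array, Cox6a2 at 12.03 and 11.46 at P59, against 11.97 and 11.21 at P54. Cox8b was at 11.52 and 11.24 at P59, against 11.32 and 10.63 at P54. Cox4i2, a form of lung known to respond to low oxygen, lay under the filter on all arrays, at 5.99 and 6.12 at P59, against 5.81 and 5.68 at P54.

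Skeletal muscle markers shared the low values of the 54 genes in P54 replicate 2. In P59 replicate 2 the median deviation of the markers was -0.15, against 0.01 for the 54 genes. All 24 markers were above the filter and 0 were listed at 0. All 24 were lower in P54 replicate 2 than in P54 replicate 1, as were 72.8% of all genes tested. Within P59, 23 of 24 were lower in replicate 2 than in replicate 1, against 37.9% of all genes. There 25% of the markers lay at least 1.5-fold below replicate 1, against 8.57% of all genes. Their summed intensity was 284000 and 208000 at P59, against 262000 and 201000 at P54. Their median log2 difference was 0.11, with 16 higher and 8 lower at P59. Ckm, the creatine kinase of muscle, was lower in value, at 14.18 and 13.02 at P59, against 14.12 and 13.82 at P54 (difference -0.36, limma adjusted p = 0.946). P59 replicate 2 was the lowest array for Ckm and P59 replicate 1 the highest. Mb, the oxygen store myoglobin, was the 1 marker of 24 at an unadjusted p under 0.05 (3.47% of all genes were higher at that limit). It was at 13.21 and 12.97 at P59, against 12.43 and 11.32 at P54, a 2.33-fold difference (log2 1.22, SE 0.34, limma adjusted p = 0.460). The part of the muscle layer in the levels of the respiratory chain was not tested, and in whole skin fewer cells of a type and less RNA per cell cannot be told apart.

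Complex V makes ATP from a soluble catalytic head and a membrane rotor. The median of its 11 genes was 0.08, with 9 higher and 2 lower at P59, and -0.04 without P54 replicate 2. The catalytic subunit genes Atp5a1 and Atp5b differed by 0.05 and 0.08, with groups that overlapped. Atp5l, which encodes subunit g of the membrane part, was at 11.96 and 11.92 at P59, against 11.70 and 11.40 at P54. The P59 arrays were nearly equal and above both P54 arrays, which lay farther apart, and its p was the smallest of the 54 genes (difference 0.39, 1.31-fold, SE 0.23, 95% interval -0.12 to 0.91, unadjusted p = 0.121, limma adjusted p = 0.875). Atp5c1, the central stalk subunit gamma, was at 12.52 and 12.61 at P59, against 12.36 and 12.26 at P54. It was higher in both P59 arrays than in either P54 array (difference 0.26, SE 0.22, limma adjusted p = 0.938).

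Atp5d, the delta subunit of the central stalk, was at 12.12 and 11.67 at P59, against 12.14 and 12.16 at P54. P59 replicate 2 was low, and the difference was -0.26 (SE 0.24, limma adjusted p = 0.946), or -0.03 without it. Its other probe set was lower still in the same array, at 11.33 and 9.16 at P59, against 11.31 and 11.38 at P54, and the 2 sets differed by 0.84 in the P59 minus P54 difference, the widest disagreement of any of these genes. Atp5g1 and Atp5g3 encode the same mature rotor subunit c. Atp5g1 was at 11.27 and 10.65 at P59, against 11.30 and 10.67 at P54, low in replicate 2 of both times. Atp5g3 was even, at 13.03 and 12.89 at P59, against 12.95 and 12.88 at P54. Atp5g2, the third gene for this subunit and not among the 55, was at 11.61 and 10.17 at P59, against 11.54 and 11.42 at P54, so that P59 replicate 2 was alone low.

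In P59 replicate 2, 5 of the 54 genes lay at least 1.5-fold below P59 replicate 1, namely Ndufa3, Sdhc, Uqcrc1, Cox8a and Atp5g1, while 8.57% of all genes tested did so. The share among the 54 genes, 9.26%, was near that of all genes. Atp5g1 was as low in P54 replicate 2. The part of RNA quality in these values was not tested. Of the 30 genes with several probe sets above the filter, the sets gave the same sign for the P59 minus P54 difference in 26, for replicate 2 minus replicate 1 at P59 in 20, and at P54 in 25. The median spread of the P59 minus P54 difference between sets of a gene was 0.08.

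**Figure D3:**
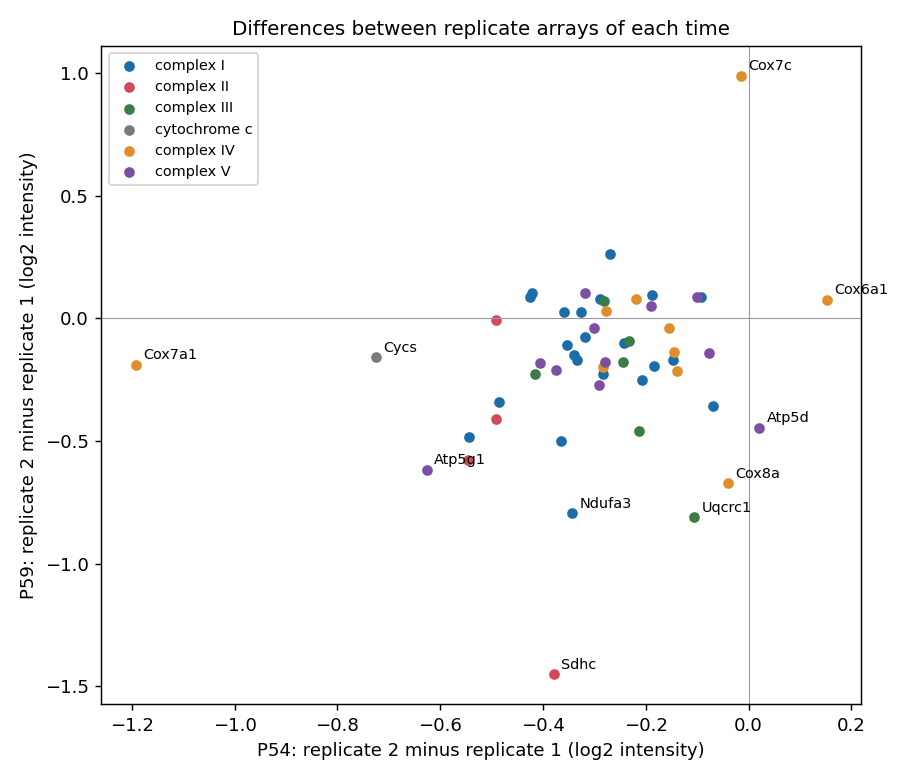
The difference between replicate 2 and replicate 1 is plotted for each of the 54 genes, within P59 on the vertical axis and within P54 on the horizontal axis, both in log2 intensity. Nearly all points lie left of zero, since 52 of 54 genes were lower in P54 replicate 2, and Sdhc, Uqcrc1, Ndufa3, Cox8a and Atp5g1 lie lowest.

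Other mitochondrial gene lists held 0 calls past the adjusted threshold in limma, and most of them were also low in P54 replicate 2. Of 12 other complex I subunit genes tested, 10 were higher at P59 with a median of 0.09, and of 13 other subunit genes of complexes III to V, 11 were higher with a median of 0.20. Assembly factors, which build the complexes but are not part of them, had a median of 0.14 (31 of 41 higher). Cox15, needed to make the haem of complex IV, had the smallest p among them, at 8.24 and 8.49 at P59, against 8.09 and 7.55 at P54 (difference 0.55, limma adjusted p = 0.787). The tricarboxylic acid cycle and pyruvate dehydrogenase list had a median of 0.19 (15 of 18 higher), and P54 replicate 2 was the lowest array for all 18 of its genes. Mpc1, part of the mitochondrial pyruvate carrier, was at 11.51 and 11.53 at P59, against 11.30 and 10.68 at P54 (difference 0.53, limma adjusted p = 0.821). Mitochondrial ribosomal protein genes had a median of 0.14 (55 of 73 higher), and fatty acid oxidation genes 0.04 (10 of 18 higher). ND5, the gene of the mitochondrial genome in these lists that had a probe set of its own, was at 13.66 and 13.67 at P59, against 13.67 and 12.90 at P54, low in P54 replicate 2 alone.

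**Figure D4:**
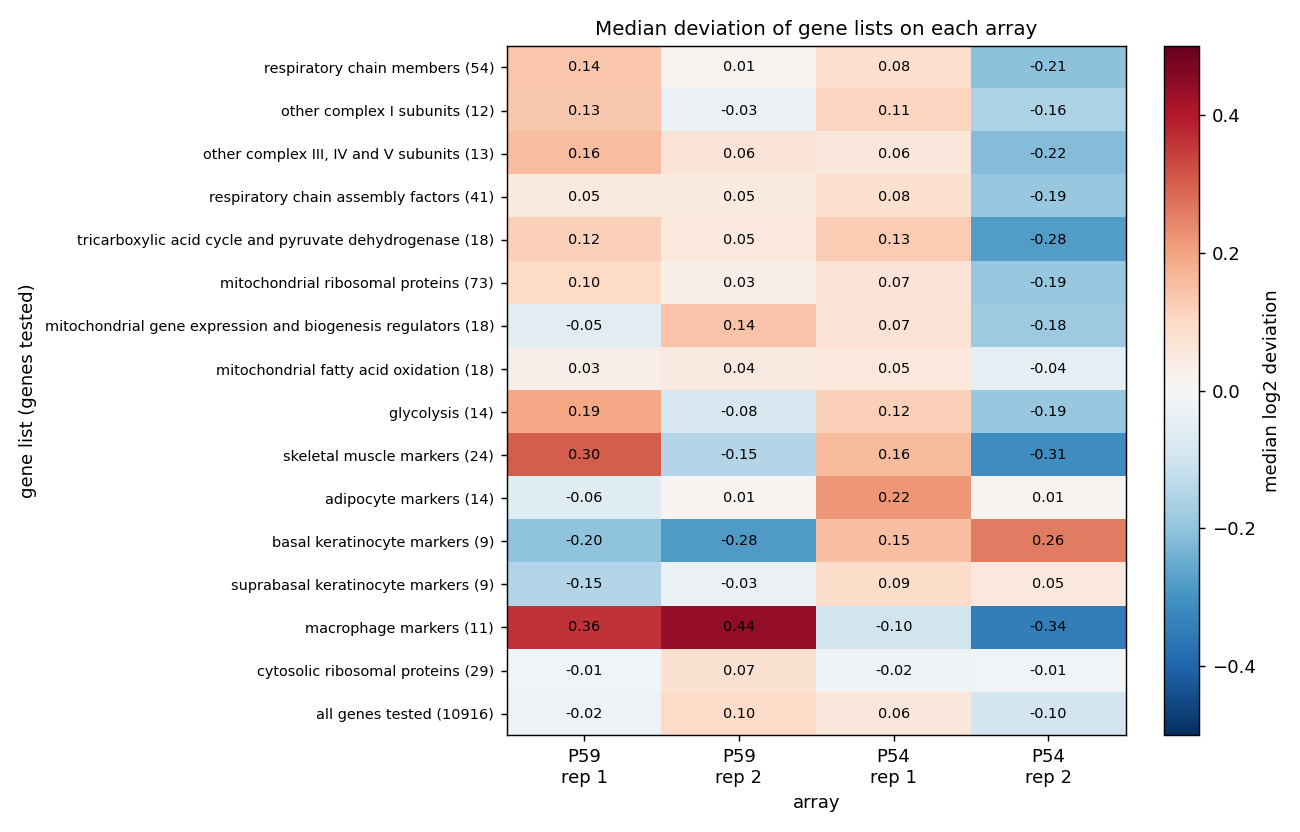
Each cell gives the median over a gene list of the log2 deviation from each gene's mean, for the 4 arrays from left to right, with the number of genes tested in parentheses. The respiratory chain, the tricarboxylic acid cycle, the mitochondrial ribosome and skeletal muscle markers share low values in P54 replicate 2 (-0.21, -0.28, -0.19 and -0.31), while cytosolic ribosomal proteins lie near zero (-0.01). All genes tested lie at -0.10 in that array.

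Of 18 regulators of mitochondrial gene expression tested, 13 were higher and 5 lower at P59, with a median of 0.13. Polg2, a subunit of the mitochondrial DNA polymerase, was at 7.53 and 8.08 at P59, against 7.31 and 7.44 at P54 (difference 0.43, limma adjusted p = 0.871). Twnk, the mitochondrial DNA helicase, and Lrpprc, which stabilises mitochondrial mRNAs, differed by 0.36 and 0.33 (limma adjusted p = 0.891 and 0.917). Both P59 arrays were above both P54 arrays for these 3 genes. In the whole list this held for 4 of 18 genes, and the reverse for 2, against 18.9% and 14.8% of all genes tested. In this list 2 genes had an unadjusted p under 0.05, both lower (3.01% of all genes tested were lower at that limit). Ppargc1b, a coactivator of mitochondrial genes, was at 7.72 and 7.48 at P59, against 8.27 and 8.06 at P54. Pprc1, a relative of that coactivator, was at 8.07 and 7.54 at P59, against 8.65 and 8.20 at P54. Both P59 arrays were lower than both P54 arrays for each, by -0.57 (SE 0.23, unadjusted p = 0.0339) and -0.62 (SE 0.27, unadjusted p = 0.0436), and neither passed adjustment (limma adjusted p = 0.723 and 0.762). In glycolysis, the pathway that feeds pyruvate to mitochondria, 10 of 14 genes were higher with a median of 0.07. Hk2, the hexokinase of muscle and fat, had the smallest p there, at 10.69 and 10.53 at P59, against 10.27 and 9.77 at P54 (1.51-fold, unadjusted p = 0.0389, limma adjusted p = 0.743).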

How the data were processed

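Expression in whole dorsal skin was measured on 4 Affymetrix arrays. The authors deposited 1 table of linear intensity values per probe set, and the submitters' processing notes name RMA and Affymetrix Expression Console, with no version or genome build given in the sources used here. RMA evens out the arrays, so overall differences in RNA amount are not kept. The values were taken to log2 with no pseudocount. Groups came from the sample titles.

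Of 45101 probe sets, the array maker's 64 controls were set aside, and 34945 had a single gene symbol in the platform annotation from GEO, whose names may be dated. The set with the highest mean stood for a gene, and a gene was tested when its mean log2 intensity exceeded the 40th percentile (6.58). For 31 of the 54 genes that set has a mark in its name showing that it can match more than 1 transcript. The P59 minus P54 difference was fitted by lmFit and eBayes of limma 3.58.1 under R 4.3.3, on 2 residual degrees of freedom and 8.18 from the prior. Adjusted p is Benjamini-Hochberg's, over 10916 genes. The procedure was tested on simulated data, drawn from the fit's own prior with the same spread on every array. The simulated data held no array of poor quality, so that case was not tested. With 4 arrays split in pairs, the smallest exact permutation p is 0.333, so such a test cannot reach 0.05. The number of arrays limits the precision.

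The genes and lists were chosen with earlier results of these data known, so counts and medians over them carry no p. The genes given on every array were, per complex, up to 2 in each direction with the smallest p and groups that did not overlap, and the gene whose P59 arrays lay farthest apart. All of complex II, cytochrome c and the isoform pairs were added, and of other lists up to 3 genes in each direction with the smallest p. Alternatives were the intensity filter, the choice of probe set, repeated normalization, centring, an intensity trend, a replicate block and leaving out each array. The unfiltered sum of growing hair follicle markers was added after seeing the data.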

Additional observations from a re-analysis of the deposited data

How the results depend on the processing

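Under the 8 alternatives that kept all 4 arrays, 0 of the respiratory chain genes passed the adjusted threshold in limma and 0 had an unadjusted p under 0.05, with medians of 0.08 to 0.14 over them. The mean of all probe sets turned the sign of Ndufa3 (0.057), Sdha (-0.15), Cox7c (0.0059) and Atp5g1 (0.0697), with adjusted p of 0.883 or more, and repeated quantile normalization that of Sdhb (-0.0164, adjusted p 0.994). The median of complex II reached -0.06 under 1 of these alternatives. Leaving out 1 array at a time, the count past an unadjusted p of 0.05 and 1.5-fold ran from 0 to 3, the count past the adjusted threshold from 0 to 1, and the median from -0.02 to 0.28. The 3 were Sdhc, Uqcrc1 and Cox8a, without P59 replicate 1, with 1 each for Cox7c without P59 replicate 2 and Cox7a1 without P54 replicate 1. The median ran from 0.02 to 0.30 for complex I, -0.18 to 0.33 for complex II, -0.06 to 0.22 for complex III, -0.0101 to 0.19 for complex IV and -0.0372 to 0.28 for complex V. Ranges that crossed zero for single genes were -0.50 to 0.30 for Ndufa3, -1.29 to 0.16 for Sdhc, -0.075 to 0.42 for Sdhd, -0.13 to 0.37 for Sdha and -0.26 to 0.32 for Sdhb. They were -0.64 to 0.17 for Uqcrc1, -0.21 to 0.52 for Cycs, -0.63 to 0.36 for Cox7c, -0.34 to 0.28 for Atp5g1 and -0.0365 to 1.16 for Cox7a1. They were -0.0098 to 0.21 for Cox7a2, -0.0385 to 0.18 for Cox4i1 and -0.022 to 0.12 for Atp5g3. Over all genes tested, the adjusted count was 2, against 0 to 2 under the alternatives that kept all arrays without a block and 29 to 402 with 1 array left out. The unadjusted count was 708, against 1122 with no filter, 457 with the stricter filter, 2030 without P59 replicate 1 and 273 without P54 replicate 2. P59 and P54 share the replicate numbers 1 and 2. Over all 10916 genes tested, deviations of same-numbered arrays did not go together (correlation -0.04). Among the 54 genes, replicate 2 lay below replicate 1 for 38 at P59 and 52 at P54, against 37.9% and 72.8% of all genes. A fit with the replicate number as a block left the median at 0.13 and 0 of the 54 genes past either limit, with 156 calls over all genes. With 2 arrays a time, a difference in log2 under the interval half-width of 0.50 could not be told from the spread.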

Other observations

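Macrophage markers were higher at P59 for 10 of 11 genes, with a median log2 difference of 0.48, and 4 had an unadjusted p under 0.05, all higher (3.47% of all genes tested were higher at that limit), while 0 passed adjustment in limma. Ms4a7, a membrane protein of macrophages, was at 8.48 and 8.69 at P59, against 7.66 and 7.65 at P54 (difference 0.93, SE 0.23, limma adjusted p = 0.337). C1qa, a complement gene of macrophages, ran the other way through P59 replicate 2 alone, at 10.40 and 7.09 at P59, against 9.76 and 10.09 at P54.

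Basal keratinocyte markers had median deviations of -0.20 and -0.28 in P59 replicates 1 and 2, against 0.15 and 0.26 in P54 replicates 1 and 2, and 9 of 9 had lower means at P59. Of these, Col17a1, Itgb4 and Lamb3, genes that anchor the epidermis to its basement membrane, had an unadjusted p under 0.05 (3.01% of all genes tested were lower at that limit), and 0 passed adjustment in limma. Of 14 adipocyte markers, 5 were higher and 9 lower at P59, with a median of -0.17, and 2 were lower at an unadjusted p under 0.05 and 1.5-fold (2.53% of all genes), with 0 past adjustment in limma. Lipe, the hormone-sensitive lipase, was at 8.51 and 7.05 at P59, against 8.79 and 9.47 at P54 (difference -1.35, SE 0.42, limma adjusted p = 0.511). Cidec, a lipid droplet protein, was at 9.01 and 8.25 at P59, against 9.49 and 9.37 at P54 (difference -0.80, SE 0.28, limma adjusted p = 0.599). P59 replicate 2 was the lowest array for both. The summed intensity of the list was 57500 and 62000 at P59, against 64400 and 58000 at P54. Of 7 proliferation markers tested, 3 were higher and 4 lower at P59, with a median of -0.08. In this list 1 gene, Mcm5, had an unadjusted p under 0.05 (3.01% of all genes tested were lower at that limit), and 0 passed adjustment. Mki67 differed by 0.11, Top2a by 0.01, Mcm2 by -0.51 and Pcna by -0.18. Mcm5, part of the replicative helicase, was at 8.08 and 7.58 at P59, against 8.58 and 8.55 at P54 (difference -0.74, SE 0.25, limma adjusted p = 0.583).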
